A study of Mus musculus with 4 samples.

Results

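Plasmacytoid dendritic cells (pDCs) were followed through 4 single-cell RNA-sequencing libraries of CD45+ cells (leukocytes) from the nasal mucosa of C57BL/6 mice aged 8 weeks. The cells were selected on their measured UMIs of a few genes: a cell was taken as a pDC when it held at least 2 unique molecular identifiers (UMIs, 1 per captured transcript) of Siglech and at least 2 UMIs of Ccr9, Cox6a2, Klk1 and Pacsin1 together, fewer than 2 UMIs of C1qa, C1qb and C1qc together, and no UMI of Cd3e, Cxcr2 or Ms4a1. The rule found 1743 pDCs among 72320 cells that passed quality filters, out of 79132 barcodes deposited. There were 882 pDCs in the Vehicle library, 181 in Vehicle-OVA, 497 in Ribavirin and 183 in Ribavirin-OVA. OVA is ovalbumin, the allergen with which mice of the study were sensitised and then challenged through the nose to produce allergic rhinitis. Ribavirin is a nucleoside analogue antiviral, and its dose and schedule are not given in the sources used here. Each condition was a single library, and neither the number of mice pooled in a library nor any replicate is stated. No difference between conditions could therefore be tested against animal-to-animal variation, and condition and library cannot be told apart. Intervals given here are 95% intervals for counting error only.

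pDCs are bone marrow-derived dendritic cells that sense viral and self nucleic acids through the endosomal receptors TLR7 and TLR9 and can release large amounts of type I interferon. Their identity depends on the transcription factor TCF4 (E2-2), with BCL11A, SPIB, RUNX2 and IRF8, and they keep features of lymphoid cells such as transcripts of terminal deoxynucleotidyl transferase and pre-T-cell receptor alpha. In allergic airway disease pDCs have been studied mainly as a source of interferon and as regulators of T-cell responses.

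The label was checked against genes that the rule did not use. Values are counts per 1000000 (CPM), the UMIs of a gene scaled to 1000000 UMIs of the summed cells, and series of 4 values below are in the order Vehicle, Vehicle-OVA, Ribavirin, Ribavirin-OVA. Bst2, a tetherin carried on the pDC surface, stood at 3262, 2228, 2970 and 2470 CPM, against 171 to 375 CPM in all other cells of the same libraries. Tcf4 stood at 1473, 2782, 1362 and 2990 CPM. The whole pDC marker list summed to 8737, 12175, 7733 and 12914 CPM, against 254 to 466 CPM, but that sum holds genes of the rule and is a description only. Markers of other leukocytes were low, in part because the rule sets some of them to 0: B-cell markers, with Ms4a1 at 0 by the rule, summed to 8.34 to 9.10 CPM (81.6 to 125 CPM in other cells) and NK-cell markers to 14.3 to 59.5 CPM (163 to 391 CPM). T-cell markers summed to 51.1 to 92.8 CPM (394 to 988 CPM), with Cd3e at 0 by the rule, macrophage markers to 349 to 650 CPM (6141 to 17672 CPM) and plasma cell markers to 860 to 1428 CPM (3127 to 11532 CPM). Conventional dendritic cell markers summed to 592 to 1048 CPM, above the 196 to 232 CPM of other cells, and Flt3 was only a part of that sum. Epithelial markers were not low throughout. They summed to 160, 346, 339 and 396 CPM, against 183, 308, 554 and 780 CPM in other cells, and were above other cells in Vehicle-OVA. Olfactory neuron markers summed to 1.67 to 65.0 CPM (33.8 to 223 CPM). Transcripts of other classes were nevertheless present at low level in nearly every pDC, since 96.8 to 100% of them per library held at least 2 UMIs of another class's markers. Neutrophil markers differed between the libraries, at 325, 1606, 586 and 229 CPM against 13154, 32314, 18178 and 10693 CPM in other cells, and were highest in Vehicle-OVA in both. Of the 8 neutrophil markers Cxcr2 was at 0 by the rule and Ly6g was at 0 in Ribavirin-OVA. At least 10 UMIs of S100a8 and S100a9, abundant neutrophil transcripts, were held by 11 of 882, 36 of 181, 14 of 497 and 0 of 183 pDCs, which is 1.25, 19.9, 2.82 and 0%. Without these cells, called S100a8/S100a9-rich pDCs below, the neutrophil marker sum was 234, 716, 361 and 229 CPM, and results that moved without them are given with those values, a comparison chosen after the data were seen.

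The median pDC held more UMIs than the median of all other cells. Median depth of pDCs was 7439, 9307, 8750 and 11187 UMIs per cell, against 3409 to 4996 UMIs in other cells, and together pDCs held 6810589, 1798981, 4675996 and 2025179 UMIs. Conventional dendritic cells (cDC1 and cDC2, called as given below) were mostly deeper than pDCs. Their medians were 12105, 4946, 13323 and 15036.5 UMIs in cDC1 and 10014, 12098, 9978 and 14039 UMIs in cDC2. B cells were shallower than pDCs, at 3638, 3849, 3592 and 10822 UMIs. The median mitochondrial share of pDC UMIs was 4.36, 5.30, 4.23 and 6.45%, higher in both OVA libraries, against 1.30 to 3.38% in other cells. The 4 libraries shared between 196 and 404 barcodes each with the others, and 14, 0, 6 and 5 pDCs carried such a barcode, never the same barcode in a pair of pDCs. In the Ribavirin library 3 pDCs held 111426, 76551 and 58581 UMIs, up to 12.7 times the median, including many UMIs of the nasal gland and epithelial transcripts Obp1a, Bpifa1 and Reg3g. Results that rest on them are given with and without them.

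The threshold lay far below the typical member. The median pDC held 18.5, 32, 21 and 41 UMIs of Siglech, and 15, 4, 5 and 1 pDCs held exactly 2. Cells just outside, with 1 UMI of Siglech, numbered 13, 5, 10 and 7. Pooled CPM of Tcf4 were 1285, 1367, 957 and 827 in the 21, 6, 12 and 1 cells just inside and 696, 589, 1025 and 1219 in the 19, 6, 15 and 10 cells just outside either limit. Irf8 stood at 780, 1988, 626 and 5790 CPM inside and 585, 1972, 156 and 1775 CPM outside. The requirement for no macrophage, T-cell, neutrophil or B-cell marker removed 323 of 1205, 67 of 248, 175 of 672 and 43 of 226 candidate cells, which is 26.8, 27.0, 26.0 and 19.0%. The removed cells were deeper, with medians of 9855 to 13766 UMIs.

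The genes that set pDCs apart were described without a test, since the rule was built on genes of these cells. Ranked by the lowest of the 4 libraries' ratios of pDC CPM to other-cell CPM, the first was Cox6a2, the muscle-type isoform of a cytochrome c oxidase subunit (chr7:128205435-128206387, minus strand, GRCm38), at 1223, 703, 945 and 832 CPM and at least 54.5 times other cells in each library. The tissue kallikrein Klk1 (chr7:44225360-44229618, plus strand) followed at 49.0 times and the sialic acid-binding receptor Siglech (chr7:55768178-55778925, plus strand) at 47.8 times. Genes that the rule did not use filled most of the list. The receptor gene Cd300c came at 43.9 times, Sh3bgr at 41.3 times, Dntt at 39.5 times and D13Ertd608e at 33.5 times. Smim5 followed at 32.5 times, Klk1b27 at 30.2 times and Lefty1, a secreted antagonist of Nodal, at 27.1 times. Atp2a1, Adam11, Paqr5, Pacsin1, Bcl11a, Pdzd4, Cd8b1 and Fcrla came next, at 19.3 to 26.6 times. Cox6a2 and Atp2a1 are best known from striated muscle. By the share of a gene's UMIs that fell in pDCs, the 5 most restricted genes were Robo3 (at least 73.7% in each library), Gm13919 (73.3%), Siglech (68.0%), Myh13 (67.5%) and Cd300c (67.5%), although pDCs were at most 3.43% of cells.

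pDCs were a smaller share of CD45+ cells in both OVA libraries, by very different amounts. They made up 3.43% of passing cells in Vehicle (exact Clopper-Pearson interval 3.21 to 3.66), 1.03% in Vehicle-OVA (0.890 to 1.20), 2.45% in Ribavirin (2.24 to 2.67) and 2.08% in Ribavirin-OVA (1.79 to 2.40). The OVA library thus held 0.302 times the pDC share of its control under vehicle and 0.847 times under ribavirin, and the log2 interval of the second ratio included 0 (-0.49 to 0.01). Granulocytes, counted as cells with a Cxcr2 UMI or at least 10 UMIs of S100a8 and S100a9, were 34.7, 71.6, 41.5 and 34.0% of cells and were most frequent where the pDC share was lowest. With granulocytes left out of the total and all pDCs kept, pDCs were 5.24, 3.62, 4.19 and 3.15%, so the ratios were 0.690 under vehicle and 0.752 under ribavirin. If the pDCs with at least 10 S100a8 and S100a9 UMIs are left out with the granulocytes, which removes 36 of the 181 in Vehicle-OVA, the shares were 5.18, 2.92, 4.07 and 3.15% and the ratios 0.563 and 0.772.

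**Figure D1:**
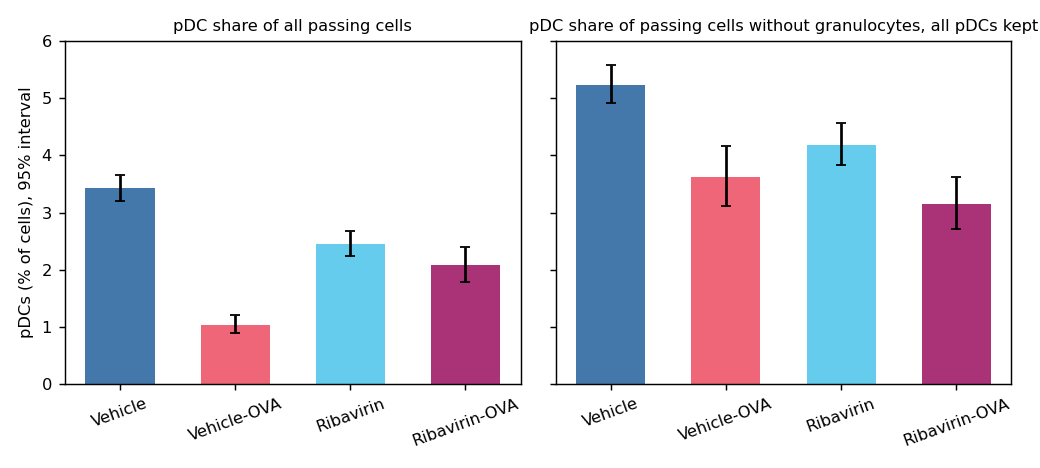
pDCs as a percentage of cells in each of the 4 libraries, over all passing cells (left) and over cells without granulocytes, with all pDCs kept (right). Bars start at 0 and lines are exact 95% binomial intervals for counting error. The low bar of Vehicle-OVA at 1.03% becomes 3.62% on the right, where Ribavirin-OVA is at 3.15%.

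Ribavirin-OVA held 2.01 times the pDC share of Vehicle-OVA over all cells. Without granulocytes it held 0.870 times with all pDCs kept, and 1.08 times when pDCs with many S100a8 and S100a9 UMIs were left out too, so no direction is given. Ribavirin held 0.715 times the share of Vehicle over all cells and 0.798 times without granulocytes. The share also depended on the mitochondrial limit. With cells kept only under 5% mitochondrial UMIs, in place of 10%, the 4 shares were 2.64, 0.481, 2.02 and 0.443%, and the higher share of Ribavirin-OVA over Vehicle-OVA was no longer present. Against conventional dendritic cells, called from Xcr1 and Clec9a (cDC1) or Cd209a (cDC2) with no Siglech UMI, there were 2.22, 2.11, 1.21 and 2.06 pDCs per cell. Relative to these close relatives the pDCs of Vehicle, Vehicle-OVA and Ribavirin-OVA were about as frequent, and Ribavirin had the fewest.

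Expression was then compared between libraries on the summed UMIs of the pDCs. For the 9652 genes with at least 50 UMIs over all pDCs, the log2 ratio of CPM was taken with 2 CPM added to each value, and a gene was counted as higher or lower at a ratio of at least 2-fold. In Vehicle-OVA against Vehicle, 745 genes (7.72%) were higher and 259 (2.68%) lower. In Ribavirin-OVA against Ribavirin, 649 (6.72%) were higher and 427 (4.42%) lower. The ribavirin comparisons gave 149 higher (1.54%) and 8 lower (0.0829%) without OVA, and 116 higher (1.20%) and 252 lower (2.61%) with OVA. These are counts past a fold, not calls of a test.

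A transcript-length shift ran through both OVA comparisons. The median log2 ratio of all tested genes was 0.29 under vehicle and 0.25 under ribavirin, against -0.02 and -0.03 in the ribavirin comparisons. Among genes ordered by transcript length and parted into 10 groups of equal size, the shortest group (median 988 bases) had a median log2 ratio of -0.45 and -0.49, and the longest group (median 8225 bases) 0.55 and 0.54. Across 9638 genes, Spearman's rho between length and log2 ratio was 0.43 and 0.44 in pDCs, and 0.42 and 0.48 in all other cells of the same libraries, so the shift was shared by the whole library. Ribosomal protein transcripts, which are short, took 24.9, 13.9, 23.1 and 13.7% of pDC UMIs. The nuclear transcript Gm42418, which overlaps ribosomal RNA sequence, stood at 9550, 30411, 15223 and 42777 CPM in pDCs and showed the same order in other cells, from 12487 CPM in Vehicle to 47527 CPM in Ribavirin-OVA. Relative to the median of all genes, the split was 272 higher and 571 lower under vehicle and 223 higher and 747 lower under ribavirin. Relative to genes of like length it was 241 and 321 under vehicle and 210 and 506 under ribavirin. For genes named below, the log2 ratio relative to genes of like length is given where the shift matters, as the length-relative value.

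**Figure D2:**
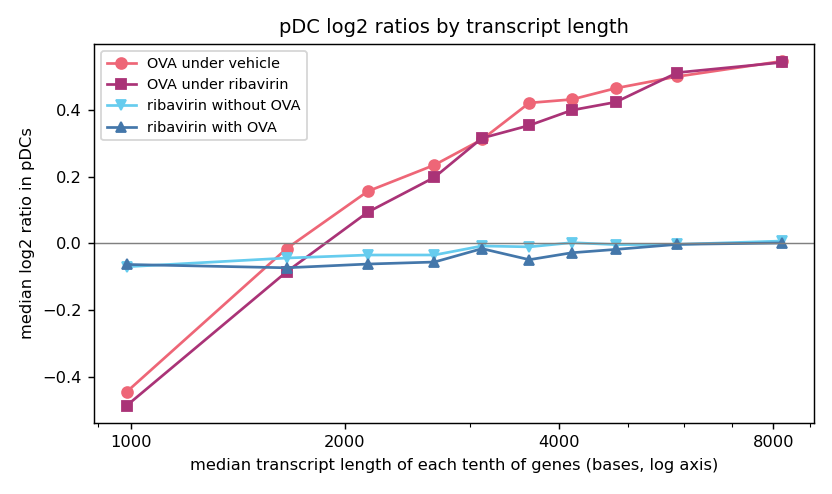
Median log2 ratio of CPM in pDCs for genes parted into 10 groups of equal size by transcript length (bases, log axis), 1 line for each of the 4 comparisons. Both OVA comparisons climb from about -0.45 and -0.49 in the shortest group to 0.55 and 0.54 in the longest, and both ribavirin comparisons stay close to 0.

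The 2 OVA comparisons share no library, and their gene lists met in part. Of the genes past 2-fold, 238 were higher in both, which is 31.9% of the vehicle list and 36.7% of the ribavirin list, and 133 were lower in both, or 51.4% and 31.1%. Of these, 20 of 238 and 47 of 133 were also past 2-fold the same way in other cells. Of the 745 genes higher under vehicle, 38 (5.10%) were lower under ribavirin, near the 4.42% of all genes that were lower there. Counts of gene lists below are to be read against the shares of all genes, 7.72% higher and 2.68% lower under vehicle and 6.72% higher and 4.42% lower under ribavirin. Of the 28 pDC identity genes, 2 were higher and 1 lower under vehicle, and 4 higher and 1 lower under ribavirin, with medians of 0.09 and 0.27. The vehicle counts, 7.14% and 3.57%, were near those shares, and 0 were past 2-fold in either ribavirin comparison. The identity list holds Siglech, Ccr9, Cox6a2, Klk1 and Pacsin1, which the rule used. Its counts and medians are therefore a description only.

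Lymphoid-type genes differed in both OVA comparisons, some higher and some lower. Ptcra (chr17:46755663-46763712, minus strand), which encodes the pre-T-cell receptor alpha chain and is known in pDCs as a target of TCF4, stood at 10.1, 86.2, 14.3 and 93.3 CPM. Both OVA libraries were several times above both controls, and the controls lay close together. The ratio was 8.50 (6.36 to 11.5) under vehicle and 6.51 (4.91 to 8.74) under ribavirin, and the length-relative log2 values were 3.17 and 2.92. More cells carried it: 6.80, 40.9, 9.05 and 42.6% of pDCs had a Ptcra UMI, against 0.213 to 0.486% of other cells. With each pDC thinned to 3000 UMIs the shares were 3.22, 16.4, 3.65 and 21.7%, so the difference was present at equal depth.

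Dntt (chr19:41029275-41059525, plus strand), the template-independent DNA polymerase of antigen receptor assembly, stood at 298, 630, 242 and 638 CPM. Its ratio was 2.12 (1.97 to 2.28) under vehicle and 2.64 (2.43 to 2.86) under ribavirin, and 53.9, 73.7, 45.0 and 81.1% of pDCs carried it at 3000 UMIs. Dntt was therefore higher in both OVA libraries, in level and in the share of cells. Ly6d (chr15:74762056-74763620, minus strand), a surface protein that marks lymphoid-committed progenitors, ran the other way at 2966, 1029, 2578 and 943 CPM. Its ratio was 0.347 (0.331 to 0.364) under vehicle and 0.366 (0.348 to 0.384) under ribavirin. Ly6d is a short transcript, and the length-relative log2 values were -0.95 and -0.84, smaller than the -1.53 and -1.45 measured. B cells of the same libraries had Ly6d at 1586, 413, 1781 and 433 CPM, so its lower level in OVA libraries was not limited to pDCs. Cd7, a surface receptor of T and NK cells and of pDCs, stood at 356, 174, 322 and 153 CPM, with length-relative log2 values of -0.45 in both comparisons. Il7r, the interleukin-7 receptor, stood at 282, 565, 276 and 525 CPM, and Blnk, an adaptor of B-cell receptor signalling, at 287, 562, 274 and 546 CPM. Of the 11 measured genes of the lymphoid list, 2 were higher and 2 lower under vehicle, and 2 higher and 3 lower under ribavirin.

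**Figure D3:**
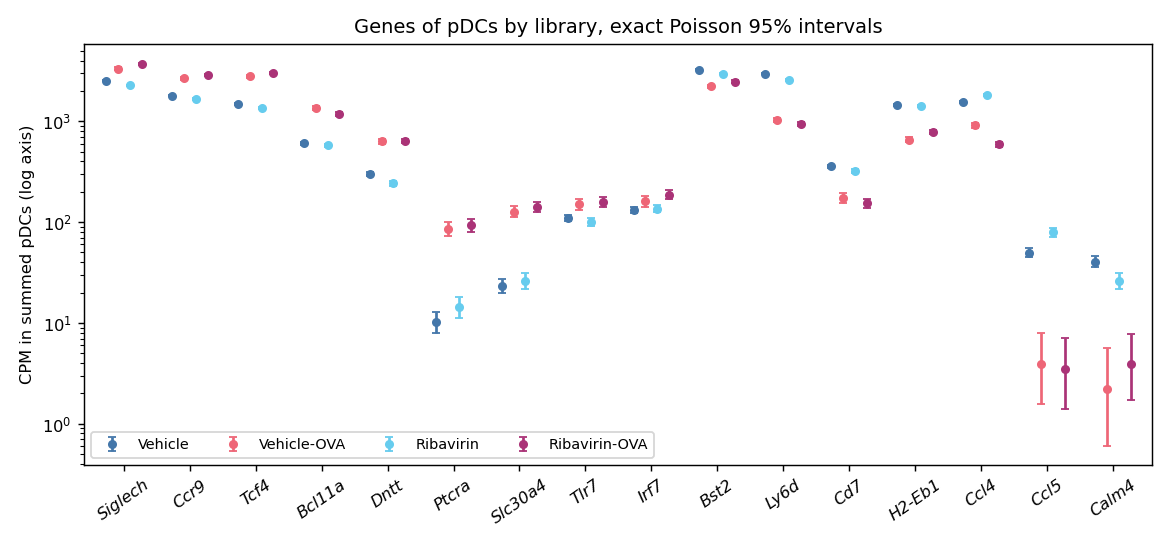
CPM (log axis) of 16 genes in pDCs of the 4 libraries, with exact 95% Poisson intervals for counting error. Ptcra and Slc30a4 sit several times higher in both OVA libraries, and Ly6d, Cd7, Calm4 and Ccl5 lower, while Siglech and Ccr9 differ less.

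Slc30a4 (chr2:122681233-122702663, minus strand), a zinc transporter of endosomal vesicles, stood at 23.1, 127, 26.1 and 142 CPM. The ratio was 5.52 (4.49 to 6.81) under vehicle and 5.45 (4.40 to 6.79) under ribavirin, nearly the same size. It was shared with other cells, whose log2 ratios were 1.56 and 1.74, and cDC2 had it at 26.3, 190.5, 40.7 and 219 CPM. The 5 highest of either OVA comparison also held Dse, an epimerase of dermatan sulphate synthesis, at 10.3, 51.1, 10.9 and 90.9 CPM, Bst1 at 20.3, 107, 20.7 and 53.3 CPM, Tmem108 at 3.23, 33.4, 5.99 and 18.8 CPM, Efna5 at 1.62, 7.23, 2.14 and 22.2 CPM and Tppp at 1.76, 13.3, 2.78 and 18.3 CPM. These 5 were higher with OVA in both comparisons, although Bst1 under ribavirin had a log2 ratio of -0.36 with cells under 5% mitochondrial UMIs, and Tppp under vehicle one of -1.10 with cells thinned to 1000 UMIs. Timd4, first by log2 ratio under vehicle (3.07), stood at 1.03, 23.4, 5.56 and 0.988 CPM, with 95% of its Vehicle-OVA UMIs in 1 cell, and was lower under ribavirin. The ratio of Tmem108 was 10.3 (6.24 to 17.7) under vehicle and that of Efna5 10.4 (5.16 to 23.1) under ribavirin. Calm4 (chr13:3837757-3838673, plus strand), a calmodulin-like gene, was the reverse, at 40.5, 2.22, 26.1 and 3.95 CPM. Its ratio was 0.0549 (0.0148 to 0.142) under vehicle and 0.151 (0.0639 to 0.308) under ribavirin. Clec1a, a C-type lectin-like receptor, stood at 11.7, 0.556, 9.84 and 3.46 CPM.

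Transcription factors of the pDC programme were mostly higher in both OVA libraries before transcript length is taken into account. Bcl11a (chr11:24078056-24174123, plus strand), a zinc finger repressor needed for pDC development, stood at 605, 1355, 577 and 1175 CPM, a ratio of 2.24 under vehicle and 2.04 under ribavirin. Tcf4, the master regulator, showed ratios of 1.89 and 2.19 on the values given above. Both are long transcripts, and the length-relative log2 values were 0.69 and 0.49 for Bcl11a and 0.35 and 0.56 for Tcf4, all under 1. Runx2, which acts in pDC exit from bone marrow, stood at 553, 931, 447 and 988 CPM, Ikzf1 at 244, 451, 240 and 491 CPM, Irf8 at 2616, 3648, 2420 and 3873 CPM and Spib at 276, 341, 243 and 360 CPM. Every one of these 6 was higher in each OVA library than in its control, but relative to genes of like length Irf8 (0.06) and Spib (0.03) were level under vehicle. The factor list also held Id2, Zbtb46, Batf3, Irf4, Klf4 and Notch2, factors of the conventional dendritic cell programme. Its counts and medians are thus not of the pDC programme alone. Of the 18 measured factors of this mixed list, 3 were higher and 0 lower under vehicle, and 4 higher and 1 lower under ribavirin. The list medians were 0.76 and 0.51 on the log2 scale against 0.29 and 0.25 for all genes. Without S100a8/S100a9-rich pDCs the ribavirin count was 2 higher and 1 lower. Tcf4 was not higher in pDCs alone, since its log2 ratio was 1.81 and 1.62 in cDC2 and 1.09 and 1.68 in B cells. In cDC1 it was 1.36 and -0.39. Bcl11a was not higher in pDCs alone either, with log2 ratios of 2.075 and 1.65 in cDC2. Its values were 0.55 and -0.95 in cDC1 and 1.06 and -0.63 in B cells.

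Nucleic acid sensing genes were mostly higher with OVA, by less than 2-fold, before transcript length is taken into account. Tlr7 (chrX:167304929-167330558, minus strand), the receptor for single-stranded RNA, stood at 110, 150, 101 and 160 CPM, against 16.5 to 19.3 CPM in other cells. Tlr9, the receptor for unmethylated CpG DNA, stood at 3.67, 5.56, 4.28 and 6.42 CPM, and Tlr12 stood at 42.7, 53.9, 38.7 and 61.2 CPM. All 3 were higher in both OVA libraries at less than 2-fold, and under vehicle the length-relative log2 values were only 0.01 for Tlr7, -0.01 for Tlr9 and -0.02 for Tlr12. Traf6, the ubiquitin ligase that relays their signal, stood at 19.1, 49.5, 22.5 and 45.9 CPM, with log2 ratios of 1.29 and 0.97. Of the 19 measured genes of the list, 3 (15.8%) were higher and 0 lower under vehicle and 0 in either direction under ribavirin, with medians of 0.44 and 0.42. All 19 lay above 0 under vehicle, and 18 under ribavirin, as did most genes, whose medians were 0.29 and 0.25. Without S100a8/S100a9-rich pDCs, 1 of 18 was past 2-fold under vehicle. Irf7, the factor that drives interferon alpha transcription in pDCs, stood at 131, 161, 136 and 186 CPM.

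Interferon transcripts themselves were almost absent. Of 20 interferon genes, 16 had no UMI in any pDC, and the other 4 held 20 UMIs in all. Ifnb1 had 5 UMIs in 1 Vehicle cell and 6 UMIs in 1 Vehicle-OVA cell. Ifnl2 had 3 UMIs in Vehicle and 4 in Ribavirin, and Ifna2 and Ifnk had 1 UMI each. A gene at 0 in a library could still be present at up to 0.441, 1.67, 0.642 or 1.48 CPM, and cells with a UMI of it at up to 0.340, 1.66, 0.604 or 1.64% of pDCs. These limits concern captured UMIs and not cells that express the gene.

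Interferon-stimulated genes are the usual record of interferon received. Many carry the interferon-stimulated response element in their promoter, here searched as GAAA NN GAAA (N for any base) on both strands in RefSeq windows (GRCm38.p6) from 250 bases before to 50 after the gene start. A match lay in 15 of the 29 listed interferon-stimulated genes with a window (51.7%), against 3.99% of 27025 genes overall. In 18 windows of pDC identity genes 3 held it (16.7%). Promoter stretches of 4 of the genes with a match are shown because their pDC values are described here, with the matches in capitals, where TTTC reads the element on the opposite strand. The matches are a description of the letters.
Bst2 (chr8:71537557-71537632, minus strand): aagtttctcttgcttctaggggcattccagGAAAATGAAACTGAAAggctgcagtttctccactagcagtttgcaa
Rsad2 (chr12:26456533-26456602, minus strand): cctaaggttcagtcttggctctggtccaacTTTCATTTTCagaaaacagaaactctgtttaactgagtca
Ifit1 (chr19:34640755-34640843, plus strand): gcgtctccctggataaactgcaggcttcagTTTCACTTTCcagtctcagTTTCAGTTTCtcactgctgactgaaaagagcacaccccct
Stat2 (chr10:128270248-128270315, plus strand): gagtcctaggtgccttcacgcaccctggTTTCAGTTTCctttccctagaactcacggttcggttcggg

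Interferon-stimulated genes did not move as a block. Of 34 measured, 11 were higher and 0 lower under vehicle, and 2 higher and 4 lower under ribavirin, with list medians of 0.55 and -0.21 on the log2 scale. The same medians were 0.645 and 0.06 in all other cells and 0.63 and -0.37 in cDC2. In cDC1 they were -0.09 and 0.42, and in B cells -0.42 and -0.67. A higher list median under vehicle was thus not limited to pDCs. Rsad2, the antiviral enzyme viperin, stood at 6.31, 56.1, 14.5 and 13.3 CPM, Ifit1, which binds viral RNA caps, at 2.50, 16.7, 8.55 and 10.9 CPM, and Usp18, which restrains interferon receptor signalling, at 14.2, 49.5, 22.9 and 32.6 CPM. Vehicle-OVA was the highest library for each of the 3, but single cells weighed on them: 1 cell gave 51.5% of Rsad2 UMIs in Ribavirin, 40% of Ifit1 UMIs in Ribavirin and 68.2% in Ribavirin-OVA. Without S100a8/S100a9-rich pDCs, the log2 ratios of Rsad2 were 2.02 and 0.74, and of 33 genes of the list 10 were higher and 0 lower under vehicle and 0 and 2 under ribavirin. Other cells showed a similar pattern for Rsad2, with log2 ratios of 3.18 and 0.61 against 2.81 and -0.11 in pDCs. Ifi204, a DNA sensor, stood at 13.7, 24.5, 19.3 and 3.46 CPM. The summed UMIs of the list differed by 0.883 to 1.01 times in the 4 comparisons. Bst2 had log2 ratios of -0.55 and -0.27, which relative to like length were 0.03 and 0.34. Without Bst2 and Irf7 the log2 ratio of the sum was 0.25 under vehicle and -0.04 under ribavirin, in place of -0.18 and -0.15, and relative to like length it was 0.10 and 0.14. Of the 12 genes of the interferon receptor pathway, 2 were higher and 0 lower in each OVA comparison, or 3 and 0 under vehicle and 0 and 0 under ribavirin without those cells. Stat2, a transcription factor activated by the receptor, stood at 85.8, 182, 90.0 and 185 CPM, with length-relative log2 values of 0.63 and 0.62. Tyk2 had log2 ratios of 0.95 and 1.00 and Jak2 of 1.17 and 0.68, both being kinases of cytokine receptors.

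**Figure D4:**
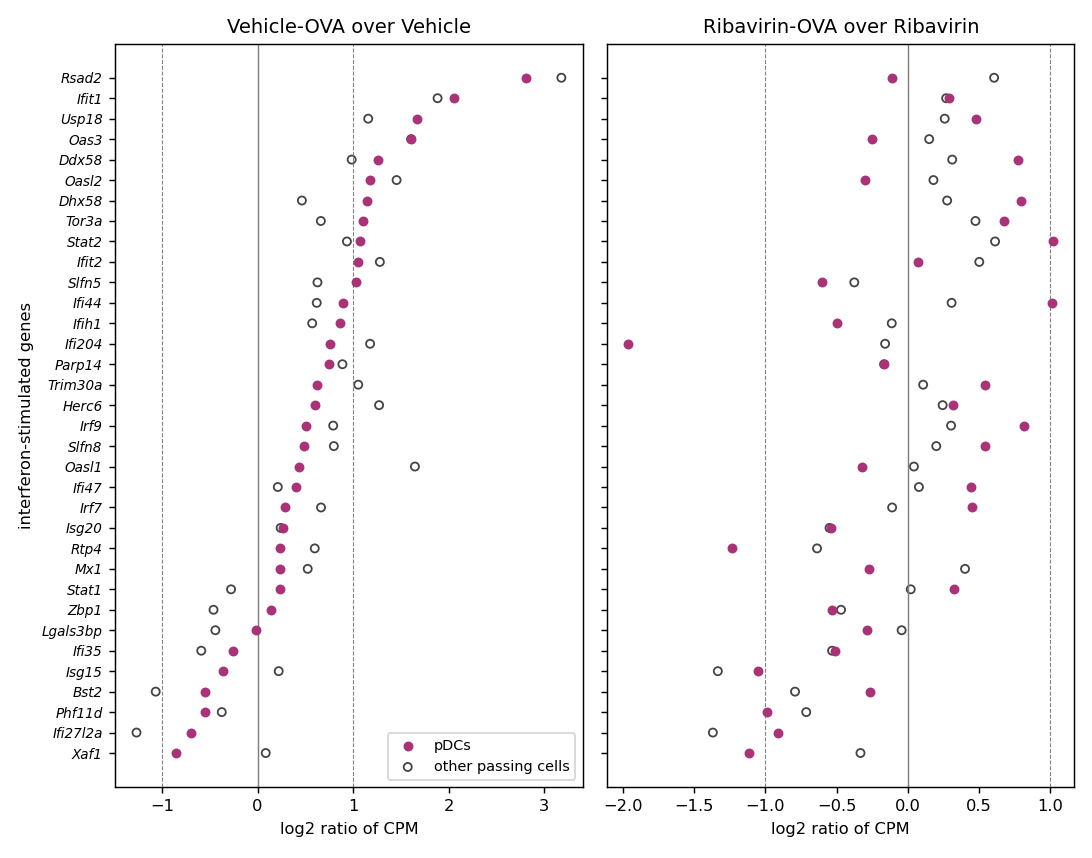
Log2 ratio of CPM for 34 interferon-stimulated genes in pDCs (filled) and in all other cells (open), OVA under vehicle on the left and OVA under ribavirin on the right. Under vehicle 11 genes of pDCs reach at least 1 and none reaches -1, with Rsad2 at 2.81, and under ribavirin 2 reach 1 and 4 reach -1.

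Cytokine and chemokine genes were mostly lower with OVA under ribavirin and mixed under vehicle. Of 14 measured, 5 were higher and 3 lower under vehicle, and 0 higher and 8 lower under ribavirin, with medians of 0.42 and -1.07. Under ribavirin the list median was -1.02 in cDC2 and -0.82 in B cells, so it was not low in pDCs alone, and -0.15 in cDC1. Without S100a8/S100a9-rich pDCs the vehicle count was 2 higher and 5 lower, with a median of -0.22, and the ribavirin count 0 and 7, with -1.02. Ccl4, an inflammatory chemokine, stood at 1558, 910, 1820 and 589 CPM, lower in both OVA libraries with ratios of 0.584 and 0.324 and length-relative log2 values of -0.20 and -1.02. Other cells had Ccl4 at 581, 4057, 673 and 475 CPM, where Vehicle-OVA was by far the highest. Ccl3 stood at 76.2, 326, 92.4 and 37.5 CPM in pDCs and at 306, 2909, 384 and 291 CPM in other cells, and both were highest in Vehicle-OVA, as the neutrophil marker sum was. Without those cells Ccl3 in pDCs stood at 75.8, 166, 81.9 and 37.5 CPM. Ccl5, a chemokine of activated lymphocytes, stood at 49.8, 3.89, 79.3 and 3.46 CPM in pDCs and at 1205, 228, 832 and 196 CPM in other cells. A single cell gave 26% of Ccl5 UMIs in Vehicle and 36% in Ribavirin. Il12a, the p35 subunit of interleukin-12, stood at 33.9, 70.0, 42.3 and 25.7 CPM. The part of transcripts from other cells in the remaining differences was not tested.

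Antigen presentation genes were lower for the main class II molecules. H2-Eb1, a class II beta chain, stood at 1447, 655, 1425 and 783 CPM, a ratio of 0.453 under vehicle and 0.549 under ribavirin. Its length-relative log2 values, -1.15 and -0.83, were close to the measured -1.14 and -0.86. In cDC1 the log2 ratios were -0.59 and -0.46, in cDC2 -0.95 and -0.50 and in B cells -0.86 and -1.36, so lower H2-Eb1 in OVA libraries was seen in all 4 cell types. Cd274, which encodes the inhibitory ligand PD-L1, stood at 14.4, 68.4, 22.9 and 22.2 CPM, highest in Vehicle-OVA. Without S100a8/S100a9-rich pDCs Cd274 stood at 14.0, 36.15, 16.2 and 22.2 CPM. Its log2 ratio of Ribavirin-OVA to Vehicle-OVA was then -0.66. Between Ribavirin-OVA and Vehicle-OVA its log2 ratio was 0.23 with cells under 5% mitochondrial UMIs, against the direction of these values. Cd83 stood at 9.98, 1.11, 12.6 and 10.4 CPM, and for OVA under vehicle its log2 ratio was 0.97 with the looser marker rule and 0.14 with no excluded genes, again the other direction. Of the 13 measured genes, 1 was higher and 2 lower under vehicle, or 1 and 4 without S100a8/S100a9-rich pDCs, and 0 higher and 1 lower under ribavirin.

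Homing receptors were mostly higher with OVA, by less than 2-fold, before transcript length is taken into account. Ccr9 (chr9:123678439-123784330, plus strand), the gut-homing chemokine receptor that the rule used, stood at 1795, 2669, 1648 and 2897 CPM. Cmklr1, the chemerin receptor, stood at 4.55, 25.6, 7.91 and 13.8 CPM, with log2 ratios of 2.07 and 0.67. Of 15 measured, 12 lay above 0 under vehicle and 14 under ribavirin. The list medians were 0.35 and 0.53, against 0.29 and 0.25 for all genes, most of which also lay above 0. Past 2-fold, 1 was higher (6.67%) and 0 lower under vehicle, and 1 higher (6.67%) and 1 lower under ribavirin. The higher shares were near the 7.72% and 6.72% of all genes.

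Secretory pathway genes, of which pDCs hold many, split by transcript. Xbp1, the transcription factor of the unfolded protein response, stood at 467, 837, 419 and 890 CPM, with length-relative log2 values of 0.74 and 1.08. Edem1, which marks misfolded glycoproteins for degradation, stood at 64.5, 182, 59.7 and 153 CPM. Ssr4, a subunit of the translocon-associated complex, was lower at 641, 272, 588 and 278 CPM, with length-relative log2 values of -1.41 and -1.24. These differences were not limited to pDCs. Ssr4 had log2 ratios of -0.90 and -1.17 in cDC1, -1.26 and -0.86 in cDC2 and -1.08 and -0.44 in B cells. Xbp1 and Edem1 were higher in those 3 cell types in both OVA comparisons. Of 22 measured, 1 was higher and 1 lower under vehicle, and 3 higher and 1 lower under ribavirin.

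The stress granule and ribavirin-handling genes, which bear on the drug and on the study's interest in stress granules, showed 0 of 10 genes past 2-fold in any of the 4 comparisons, or 1 higher under vehicle without S100a8/S100a9-rich pDCs. G3bp1, the core protein that nucleates stress granules, stood at 126, 161, 126 and 157 CPM. Its ratios were 1.27 and 1.25 for OVA and 0.998 and 0.977 for ribavirin, and relative to like length its log2 values for OVA were -0.13 and -0.23. These values say nothing on granule assembly, which is not a matter of transcript level.

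Without OVA, few genes of pDCs differed between Ribavirin and Vehicle, and many of those rested on a few cells. Of the 157 genes past 2-fold between Ribavirin and Vehicle, the count was 83 when the 3 deepest pDCs were left out and 64 without S100a8/S100a9-rich pDCs. Wfdc2, an epithelial secreted protein, stood at 5.87, 7.78, 707 and 13.3 CPM through those cells, and Plekhs1 at 0, 0, 12.8 and 0 CPM. Ccl17 stood at 5.14, 0, 57.7 and 0 CPM, with 85.9% of its Ribavirin UMIs in 1 other cell, and its log2 ratio was -1.39, the other direction, without pDCs above 2 times the median UMIs. Past 2-fold also without the 3 deepest pDCs, Arhgap24, which inactivates Rac, stood at 26.1, 27.8, 9.20 and 40.5 CPM, lowest in Ribavirin with a ratio to Vehicle of 0.352 (0.246 to 0.493). Sct, the peptide hormone secretin, stood at 7.93, 10.0, 20.1 and 11.4 CPM, a ratio of 2.54, with 26.6% of its Ribavirin UMIs in 1 cell.

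With OVA, Ribavirin-OVA against Vehicle-OVA gave more lower than higher genes, 252 against 116. Cytokines were 0 higher and 6 lower of 14, interferon-stimulated genes 0 and 5 of 34, and stress and immediate-early genes 0 and 5 of 18. Without S100a8/S100a9-rich pDCs the split was 149 higher and 178 lower, with cytokines at 0 and 4, interferon-stimulated genes at 0 and 5 and stress genes at 1 and 2. Kit, the stem cell factor receptor, stood at 14.0, 13.3, 22.2 and 1.48 CPM, lowest in Ribavirin-OVA. Bcl2a1b, an anti-apoptotic protein, stood at 18.9, 22.2, 40.4 and 5.93 CPM. Without S100a8/S100a9-rich pDCs Bcl2a1b stood at 18.1, 6.78, 36.3 and 5.93 CPM. Its log2 ratio of Ribavirin-OVA to Vehicle-OVA was then -0.15. The neutrophil marker sum in pDCs was 229 CPM in Ribavirin-OVA against 1606 CPM in Vehicle-OVA, and its part in the remaining differences was not tested.

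pDCs also varied among themselves. After thinning every cell to 3000 UMIs, which left 869, 171, 493 and 175 pDCs, the median Fano factor (variance over mean) of a gene was 1.06 to 1.09, close to the 1 of pure counting. Jchain, the joining chain of polymeric immunoglobulins, was far above it at 130, 18.6, 82.4 and 51.1. Before thinning, 1 cell held 39.5% of Jchain UMIs in Vehicle, 73.7% in Vehicle-OVA and 65.4% in Ribavirin. The source of those UMIs was not tested. Klk1 (5.29 to 6.70), Ly6d (5.15 to 8.19), Ccl4 (5.14 to 15.4), Ly6c2 (4.84 to 7.09), Cd8b1 (3.20 to 3.98) and Ccr9 (3.01 to 3.78) were uneven in every library. Cd8b1 and Cd8a, the coreceptor chains best known from cytotoxic T cells, were found in 73.5 to 78.1% and 63.0 to 73.8% of pDCs, and Cd4 in 58.5 to 66.1%, against 2.2 to 5.7%, 3.1 to 6.5% and 6.6 to 19.8% of other cells, which were shallower. No pDC held a Cd3e UMI, by the rule. Jchain, Ly6c2, Cd8a, Cd4 and Gm42418 were chosen after their values were seen.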

How the data were processed

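CD45+ cells of the nasal mucosa were profiled on the 10x Genomics Chromium 3' platform. The authors deposited 1 filtered matrix of raw UMI counts per gene and cell for each library. The submitters' processing notes name Cell Ranger 5.0.0 and mm10, and the gene annotation is not given in the sources used here. Enrichment for CD45 is described as magnetic in one source and by flow sorting in another.

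Cells with at least 500 UMIs, 200 genes and under 10% mitochondrial UMIs were kept. No doublet caller was run, and doublets were limited only by the genes that the rule excludes. pDC counts were summed per library and scaled to CPM. Log2 ratios used a pseudocount of 2 CPM over genes of at least 50 UMIs. With 1 library per group no test was made. Intervals (exact Clopper-Pearson, Poisson and conditional binomial, 95%) cover counting error only, and UMIs at 0 were bounded by 3 counts per library. B cells were called from Ms4a1 and Cd79a. Lengths and positions came from GENCODE M21 (GRCm38), promoters from RefSeq. Members, gene lists and rules for named genes (the 20 leading identity genes, the 5 highest and 5 lowest of each comparison, up to 4 per list, and fixed pDC genes) were chosen with earlier results of these data known. Results for some of these genes are not reported here. Scripts were tested on simulated data. Python 3.11.15, numpy 2.4.6, pandas 2.3.3, scipy 1.17.1 and matplotlib 3.10.9 were used. Alternatives covered the marker rule, filters, pseudocount, scaling, thinning and deep cells, of which 5 (without the 3 deepest Ribavirin pDCs, without each gene's highest cell, shares at 3000 UMIs, granulocytes out with all pDCs kept, without pDCs of at least 10 S100a8 and S100a9 UMIs) were chosen after seeing the data.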

Additional observations from a re-analysis of the deposited data

Results flagged for a closer look

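Of 338 named or listed genes examined in pDCs, 9 were at least 2-fold higher with OVA under one treatment and at least 2-fold lower under the other. Each condition was 1 library, so this difference was not tested for any of them. Given as the log2 ratio under vehicle minus that under ribavirin, it was 3.78 for S100a9, 3.58 for S100a8, 2.69 for Il1b, 4.33 for G0s2, 2.98 for Ier3, 3.33 for Ccl3, 2.41 for Ccl6, 4.40 for Timd4 and -2.64 for 1700024P16Rik.

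S100a9, a calcium-binding protein abundant in neutrophils, stood at 193, 847, 352 and 111 CPM in pDCs of Vehicle, Vehicle-OVA, Ribavirin and Ribavirin-OVA, against 7519, 16182, 10646 and 5107 CPM in other cells. S100a8, its partner, stood at 100, 541, 152 and 66.7 CPM, against 4390, 11519, 5869 and 3972 CPM. Il1b, the inflammatory cytokine interleukin-1 beta, stood at 182, 418, 181 and 62.2 CPM, against 3613, 7971, 3594 and 1725 CPM. Each of these was highest in Vehicle-OVA and lowest in Ribavirin-OVA, in pDCs and in other cells, as was the neutrophil marker sum, and 36 of 181 pDCs of Vehicle-OVA, but 0 of 183 of Ribavirin-OVA, held at least 10 UMIs of S100a8 and S100a9. Without the pDCs that held so many, Ccl3 had log2 ratios of 1.11 and -1.08 and Ier3 of 1.35 and -0.75, so the former was past 2-fold in opposite directions and the latter was not.

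G0s2, an inhibitor of lipolysis, stood at 11.8, 75.0, 44.1 and 10.9 CPM in pDCs, against 357, 1279, 504 and 206 CPM in other cells. Ier3, an immediate-early gene, stood at 34.5, 128, 44.9 and 19.3 CPM and Ccl6 at 22.3, 61.7, 19.0 and 8.39 CPM. Timd4, a phosphatidylserine receptor, stood at 1.03, 23.4, 5.56 and 0.988 CPM, with 95% of its Vehicle-OVA UMIs from 1 cell. 1700024P16Rik, at 13.7, 3.34, 9.20 and 21.7 CPM, was the only one of the 9 lower under vehicle and higher under ribavirin.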

How the results depend on the processing

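Each condition was 1 library, so leaving out a replicate was not possible. No paired analysis was possible because no group has more than 1 library. Leaving out pDCs with at least 2 UMIs of another class's markers gave no values, since it left no pDC of Ribavirin-OVA. Causes of the differences listed here were not tested.

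Of 52 alternative values of the pDC share, 43 lay within the interval of the reported log2 ratio. Under 5% mitochondrial UMIs the log2 ratio was -2.46 for OVA under vehicle, -2.19 for OVA under ribavirin and -0.12 for ribavirin with OVA, which turned its direction. Without granulocytes it was -0.83 for OVA under vehicle and 0.11 for ribavirin with OVA, and with all pDCs kept -0.54 and -0.20, the latter turning direction. Without pDCs of at least 10 S100a8 and S100a9 UMIs it was -2.03 and 1.32.

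Of 80 alternative counts of genes past 2-fold, 57 were within 1.5 times the reported count. OVA under vehicle (1004) gave 374 with a pseudocount of 10 CPM, 642 with genes of at least 200 UMIs, 562 relative to like length and 2978 with cells thinned to 1000 UMIs. OVA under ribavirin (1076) gave 420, 666, 716 and 3120 in the same order, and 1706 under 5% mitochondrial UMIs. Ribavirin without OVA (157) gave 85 with 10 CPM, 64 and 261 with at least 200 and 20 UMIs, 978 thinned, 239 with no excluded genes, 72 without cells above 2 times the median UMIs, 83 without the 3 deepest pDCs, 64 without pDCs of at least 10 S100a8 and S100a9 UMIs and 102 from the mean of single-cell CPM. Ribavirin with OVA (368) gave 119 and 563 with 10 and 0.5 CPM, 140 with at least 200 UMIs, 2594 thinned and 1166 under 5% mitochondrial UMIs. Thinned, the higher and lower genes numbered 1713 and 1265 for OVA under vehicle, 1666 and 1454 for OVA under ribavirin, 471 and 507 for ribavirin without OVA and 1246 and 1348 with OVA. Without each gene's highest cell they were 601 and 332, 579 and 445, 100 and 9, and 142 and 241. Of the 1004 and 1076 genes past 2-fold with OVA, 382 and 482 remained relative to like length.

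The summed interferon-stimulated genes had log2 ratios near 0, so small shifts turned signs. For OVA under vehicle (-0.18) the value was -0.13 with a looser marker rule, -0.47 relative to the median gene, 0.10 relative to like length and 0.25 without Bst2 and Irf7. For OVA under ribavirin (-0.15) these were -0.21, -0.40, 0.14 and -0.041, with -0.10 for no excluded genes, -0.20 without cells above 2 times the median and without the 3 deepest, -0.24 thinned, -0.21 from mean CPM and -0.18 without pDCs of at least 10 S100a8 and S100a9 UMIs. For ribavirin without OVA (-0.01) the value was 0.037 without cells above 2 times the median, 0.038 without the 3 deepest, 0.043 relative to like length, 0.026 thinned, 0.028 from mean CPM, 0.020 without pDCs of at least 10 S100a8 and S100a9 UMIs and 0.16 without Bst2 and Irf7. For ribavirin with OVA (0.02) it was -0.10 with the looser rule, 0.062 with no excluded genes, 0.069 relative to like length, -0.025 thinned, -0.034 from mean CPM and -0.13 without Bst2 and Irf7.

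Of 7344 alternative values of named genes, 6304 lay within their interval and 35 of those past 2-fold changed sign. Under 5% mitochondrial UMIs these were 1700024P16Rik at -1.18 and Bst1 at -0.36 for OVA under ribavirin, and Bcl2a1b at 0.64 and Cd274 at 0.23 for ribavirin with OVA. With the looser rule they were Ccl17 at 0.72, Ccl22 at 0.13, Cd83 at 0.97 and Cxcl9 at 1.59 for OVA under vehicle, Timd4 at 1.35 and Wfdc2 at 0.19 for OVA under ribavirin and Timd4 at 0.017 for ribavirin with OVA. With no excluded genes they were Cd83 at 0.14 for OVA under vehicle, Ccl22 at 2.13, Cd209e at 2.64 and Timd4 at 0.69 for OVA under ribavirin, and Cd209e at 1.48 for ribavirin with OVA. Without cells above 2 times the median they were Timd4 at -0.17 for OVA under vehicle, Ccl22 at 0.45 and Wfdc2 at 0.43 for OVA under ribavirin, Ccl17 at -1.39 for ribavirin without OVA and Timd4 at 0.21 with OVA. Without the 3 deepest pDCs Wfdc2 was at 0.63 for OVA under ribavirin. Thinned, they were Hspa1a at -0.93 and Tppp at -1.10 for OVA under vehicle, Ccl22 at 0.31 and Ier3 at 0.62 for OVA under ribavirin, Cd209c at 0.15 and Ifit1 at -0.43 for ribavirin without OVA and Clec1a at -0.035 for ribavirin with OVA. Without pDCs of at least 10 S100a8 and S100a9 UMIs they were Ddx58 at -0.81, Hspa1a at -0.40 and Timd4 at -0.14 for OVA under vehicle, Wfdc2 at 0.64 for OVA under ribavirin, and Hspa1b at 0.37 and Timd4 at 0.12 for ribavirin with OVA.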

Other observations

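Short transcripts of the respiratory chain were lower in pDCs of both OVA libraries at less than 2-fold for most. Of 8 measured genes, 0 were higher and 0 lower past 2-fold under vehicle and 0 higher and 1 lower under ribavirin, with medians of -0.64 and -0.57 on the log2 scale. The 2 forms of cytochrome c oxidase subunit VIa differed: Cox6a2, the muscle-type form, stood at 1223, 703, 945 and 832 CPM in the order of libraries used above, while Cox6a1, the ubiquitous form, stood at 241, 262, 232 and 282 CPM. Relative to genes of like length the log2 values were -0.22 and 0.42 for Cox6a2 and 0.69 and 0.89 for Cox6a1.

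Of 9 measured proliferation genes, 1 was higher and 0 lower under vehicle, and 1 higher and 1 lower under ribavirin, or 1 and 3, and 1 and 2, of 8 without pDCs of at least 10 S100a8 and S100a9 UMIs. Pcna, the sliding clamp of DNA replication, stood at 50.1, 108, 59.0 and 145 CPM and Stmn1, a microtubule regulator, had log2 ratios of -0.68 and -1.24. At 3000 UMIs 0.585 to 2.86% of pDCs held a UMI of Mki67.

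Among 12 survival genes, 3 were higher and 0 lower under vehicle, and 0 higher and 3 lower under ribavirin, or 2 and 2, and 0 and 3, without those cells. Flt3, the receptor for the growth factor of dendritic cells, stood at 214, 501, 218 and 401 CPM, with length-relative log2 values of 0.79 and 0.47. Higher Flt3 was not limited to pDCs, with log2 ratios of 1.26 and 1.16 in cDC1 and 1.10 and 1.65 in cDC2. In B cells they were 0.98 and 0.06. Bax, which promotes apoptosis, stood at 109, 56.1, 106 and 39.5 CPM. Of 18 stress and immediate-early genes, 5 were higher and 0 lower under vehicle, and 1 higher and 3 lower under ribavirin. Without pDCs of at least 10 S100a8 and S100a9 UMIs the counts were 3 and 0, and 1 and 2, of 17. The vehicle median of the list was then 0.11 in place of 0.41. Hspa1b, a heat shock chaperone, stood at 3.08, 37.2, 2.57 and 6.42 CPM, and 1 cell gave 50 to 95% of its UMIs in each library. Without the same pDCs Hspa1b stood at 3.12, 4.52, 1.39 and 6.42 CPM.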
